A study of Homo sapiens with 6 samples.

Results

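The immediate early genes FOS, FOSB, JUN, JUNB, JUND, EGR1, EGR2, EGR3, NPAS4 and ARC were examined for occupancy by MYT1L, a neuronal DNA-binding protein with zinc fingers. These 10 genes were listed by name from the RefSeq gene table of GRCh38.p14, out of 20033 protein-coding genes on chromosomes 1 to 22, X and Y. A peak was assigned to a gene when it shared at least 1 bp with the gene body or the 5 kb beyond either end. Occupancy was measured by CUT&RUN, in which an antibody directs a nuclease to a chromatin protein and the released DNA is sequenced. All 6 libraries came from wild-type H1, a human embryonic stem cell line used at passages 10 to 60, and were labelled day 30. In 4 libraries the antibody recognised MYT1L, and 2 control libraries used IgG, which has no chromatin target and measures background. The series design speaks of cortical interneurons, whereas the sample labels give the starting cell type, embryonic stem cells. The labels name no stimulation of the cells, and nothing says whether libraries of a group came from separate cultures. CUT&RUN measures no RNA, so neither the cell type nor the activity of these genes could be checked.

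Immediate early genes are transcribed within minutes of a stimulus, without new protein synthesis, and in neurons they follow synaptic activity and calcium entry. Signals through kinase cascades and calcium-dependent kinases reach serum response factor with its ELK partners at serum response elements, and CREB at cAMP response elements. FOS and JUN proteins pair to form the factor AP-1, EGR proteins bind GC-rich DNA, NPAS4 is a neuronal activity-induced factor, and ARC acts at synapses in receptor trafficking. MYT1L is known mainly as a repressor of non-neuronal programmes in neurons.

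Each of the 10 genes was reached by MYT1L peaks somewhere in its window (15.9% of all protein-coding genes had no MYT1L peak), and no IgG library had a peak at any of them. The number of genes with a peak was 6, 3, 3 and 10 in MYT1L replicates 1 to 4, so replicate 4 alone covered the whole set. Among all protein-coding genes, 68.0%, 43.0%, 57.3% and 77.6% had a peak within 5 kb in the same libraries. The set, at 60%, 30%, 30% and 100%, was below the general share in replicates 1 to 3 and above it in replicate 4. Longer genes have larger windows, and the 7242 protein-coding genes within the members' length range (1830 to 17550 bp) had shares of 56.3%, 31.0%, 44.8% and 68.2%, which in replicates 1 and 2 is close to the set. An IgG peak lay within 5 kb of 1.61% of all protein-coding genes in IgG replicate 1 and of 2.9% in replicate 2, and of 0.842% and 1.85% of those of similar length, so a count of 0 among 10 genes does not set them apart. The IgG peak nearest to a member lay 39.9 kb from the gene.

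**Figure D1:**
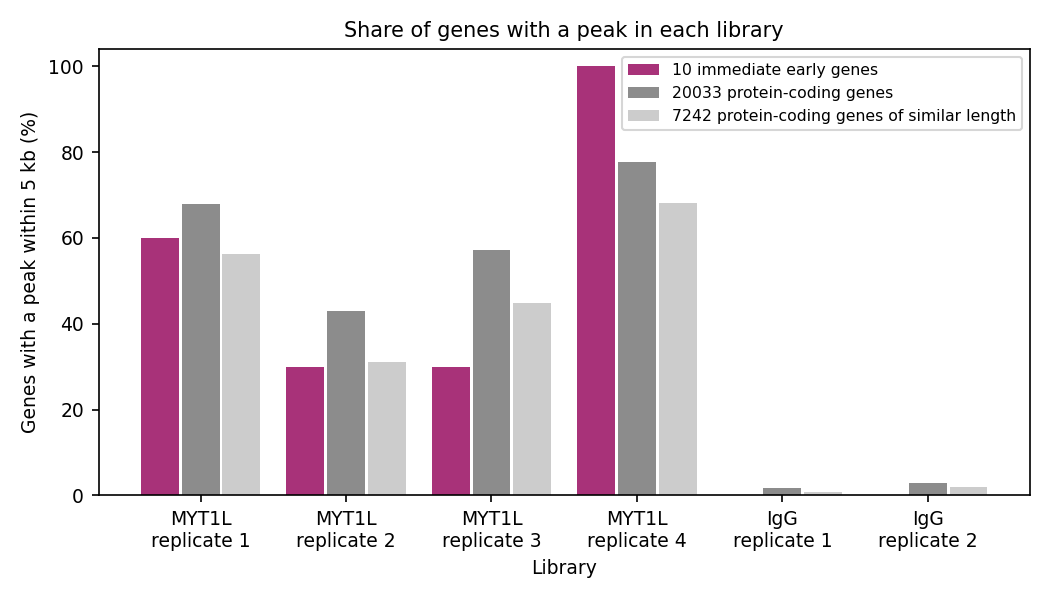
Bars give the percentage of genes with a peak in the gene body or within 5 kb, for each of the 6 libraries: the 10 immediate early genes, all 20033 protein-coding genes and the 7242 of similar length. The set lies below all protein-coding genes in MYT1L replicates 1 to 3, reaches 10 of 10 genes in replicate 4, and is at 0 in both IgG libraries.

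In numbers of peaks, MYT1L replicates 1 to 4 had 8, 4, 4 and 20 at the 10 genes, and both IgG libraries had 0. The mean was 9 ± 7.57 peaks (SD, n = 4) against 0 (n = 2), and each MYT1L library was above each IgG library (two-sided exact permutation test over 15 splits, p = 0.133, which is as low as 4 against 2 libraries can reach). Covered length was 2.26, 1.15, 1.44 and 10.4 kb in the MYT1L libraries, a mean of 3.80 ± 4.40 kb (SD, n = 4; exact permutation test, two-sided, p = 0.133). Replicate 4 held 20 of the 36 peaks, and without it the means were 5.33 peaks and 1.62 kb. With 0 in both IgG libraries and more in each MYT1L library, p is at this lowest value whatever the spread. The p-values therefore do not measure the spread between these libraries, which may be technical.

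The libraries also differed in depth, which is not stated. It was estimated as the genome-wide background pileup, the number of fragments over an average position, recovered from the deposited fold and p of the peaks. This was 1.18, 0.421, 1.05 and 0.895 fragments in MYT1L replicates 1 to 4, and 0.329 and 0.190 in IgG replicates 1 and 2. Replicate 4, with the most peaks at these genes, was thus not the deepest. If its 20 peaks were thinned to the background of IgG replicate 1, 9.31 would be expected to pass that list's lowest p, and 4.02 at IgG replicate 2. For the 8, 4 and 4 peaks of replicates 1 to 3 the expected numbers were 1.93, 3.30 and 0.598 at IgG replicate 1. At IgG replicate 2 they were 0.677, 1.49 and 0.266. The IgG lists held 976 and 998 peaks in all, against 12310 to 30086 in the MYT1L lists, of which the members' peaks made up 0.0211% to 0.0665%. The part of depth in the absence of IgG peaks was not tested.

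Only 3 of the 10 genes had a reproducible region, meaning overlapping peaks in at least 3 of the 4 MYT1L libraries and no IgG peak: EGR1, JUND and NPAS4. Such a region lay within 5 kb of 48.0% of all protein-coding genes and of 36.1% of those of similar length, so the share of the set was near or below that of other genes. The peaks of the set formed 23 regions, of which 14 came from a single library, 5 from 2 libraries, 4 from 3 and none from all 4. Of the 14 single-library regions, 11 came from replicate 4, 2 from replicate 3 and 1 from replicate 1. A region in all 4 libraries without IgG peak was present at 25.3% of all protein-coding genes and 16.9% of those of similar length. With 2 libraries sufficing, FOS, JUN and JUNB joined, which made 6 of 10 genes against 65.3% of all and 54.4% of those of similar length. Leaving out replicate 4 and asking for 2 of the other 3 libraries gave the same 3 genes, EGR1, JUND and NPAS4. None of these could be lost, since their peaks in the remaining 2 libraries overlap, and no other gene was added. With a −log10 q of at least 5, NPAS4 was lost and 2 genes remained. The share of all protein-coding genes was not computed under either of these rules. Among the 95 other genes of the response counted below, 58 met the main rule. Without replicate 4 it was 53, and with the q threshold 38.

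The DNA just upstream of 4 starts was covered by peaks of at least 2 MYT1L libraries. These 250-base upstream windows, from the RefSeq promoter table of GRCh38.p14, are shown because the peaks described next end inside or cross them. They are printed 5′ to 3′ on the strand of the gene and stop at the base before the start of that gene; the JUNB window lies within the annotated span of HOOK2, which is on the other strand. The windows are chr14:75278578-75278827 (FOS, + strand), chr19:12791236-12791485 (JUNB, + strand), chr19:18281623-18281872 (JUND, − strand) and chr5:138465229-138465478 (EGR1, + strand). Capitals mark the cAMP response element core TGACG or CGTCA (with the full element TGACGTCA), the serum response element known as the CArG box, and the TATA box TATAAA.
FOS: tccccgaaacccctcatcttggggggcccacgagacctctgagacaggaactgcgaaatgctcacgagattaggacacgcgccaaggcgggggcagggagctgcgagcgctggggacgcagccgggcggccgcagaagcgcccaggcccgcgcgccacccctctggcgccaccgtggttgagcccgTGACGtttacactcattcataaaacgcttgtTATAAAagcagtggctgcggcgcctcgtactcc
JUNB: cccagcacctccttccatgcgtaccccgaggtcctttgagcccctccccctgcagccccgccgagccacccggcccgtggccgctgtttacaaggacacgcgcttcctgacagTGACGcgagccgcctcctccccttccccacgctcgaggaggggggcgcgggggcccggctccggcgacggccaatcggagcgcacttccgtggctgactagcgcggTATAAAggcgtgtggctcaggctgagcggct
JUND: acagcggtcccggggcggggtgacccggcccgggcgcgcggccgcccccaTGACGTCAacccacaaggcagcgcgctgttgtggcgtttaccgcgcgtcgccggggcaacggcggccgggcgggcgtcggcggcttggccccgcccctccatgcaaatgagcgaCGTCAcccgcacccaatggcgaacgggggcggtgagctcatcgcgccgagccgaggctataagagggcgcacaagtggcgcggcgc
EGR1: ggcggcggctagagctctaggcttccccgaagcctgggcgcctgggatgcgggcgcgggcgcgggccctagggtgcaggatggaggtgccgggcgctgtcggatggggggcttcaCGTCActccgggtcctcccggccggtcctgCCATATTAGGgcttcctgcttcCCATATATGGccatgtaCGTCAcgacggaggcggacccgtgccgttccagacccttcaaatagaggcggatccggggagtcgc

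Among these letters, TGACG occurred on either strand upstream of 9 of the 11 starts listed for 8 members, against 24.2% of the 22182 windows of protein-coding genes. The 2 NPAS4 windows overlap, so 1 pair of matches is counted for both. The shares of all windows here are not matched for base composition. Member windows had a median of 68.4% GC against 62.0%, and 25.0 CpG pairs (C followed by G) against 16.0, and TGACG holds such a pair. A CArG box was found at EGR1 and at the most downstream EGR2 start (2 of 11 windows, 1.18% of all). Only these upstream windows were searched, for this and the other letters, so matches farther upstream were not looked for. At FOS, the replicate 4 peak nearest the start began 597 bp before it, beyond the window, and that part was not searched. The full TGACGTCA, which contains TGACG on both strands, was found at JUND (2.02% of all). TATAAA stood at FOS, FOSB and JUNB (9.01% of all). The AP-1 letters TGANTCA occurred in 0 of 11 windows (5.35% of all). The MYT1-family core AAGTT occurred at FOSB (1 of 11, 27.0% of all), 83 to 79 bases before the start and inside the replicate 4 peak. GGGCGG, a GC box, occurred in 8 of 11 windows (53.7% of all), and GCGNGGGCG, an EGR site that can overlap it, at EGR1 (10.9% of all). A match describes letters only. EGR3 and ARC have no entry in the promoter table.

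FOS (chr14:75278828-75282230, + strand) encodes the inducible partner of JUN in AP-1. Its start was flanked upstream by a peak in replicate 1, with a fold of 6.10 and a summit 118 bp before the start, and in replicate 4, with a fold of 5.60 and a summit 168 bp before it. The remaining MYT1L libraries and both IgG libraries had none there. The 2 peaks form the region chr14:75278231-75278772, in which the fold was 5.85 ± 0.352 (SD, n = 2). They end 56 and 57 bp before the start, so the TGACG that lies 64 to 60 bases before it is inside both peaks, and TATAAA is inside neither. Summit pileups were 23 and 36 fragments over local backgrounds of 2.94 and 5.61. Replicate 4 had another peak with a summit 1390 bp upstream, at a fold of 4.71.

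FOSB (chr19:45467996-45475179, + strand), a FOS relative whose products accumulate with repeated stimulation, had peaks in replicate 4 alone. The first had its summit 84 bp before the start, ended 30 bp before it and had a fold of 5.39. The second lay inside the gene with its summit 1563 bp after the start and a fold of 5.50. Their pileups were 24 and 26 fragments. At the depth of replicate 2 they had an 87.4% and an 85.9% chance of being called, and that library had no peak at FOSB. Over the whole replicate 4 list 64.0% of peaks were expected in replicate 2 and 28.8% found.

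JUN (chr1:58780791-58784047, − strand), the main AP-1 partner of FOS, had peaks in replicates 1 and 4. The replicate 1 peak lay in the gene with its summit 2049 bp after the start and a fold of 3.91. In replicate 4 a broad peak of 1525 bp, the widest of the set, ran from 201 to 1725 bp after the start with a fold of 4.66, and the 2 joined in the region chr1:58781939-58783846. Their summits were 1512 bp apart, so the overlap joins peaks with different centres. A further replicate 4 peak ended 65 bp before the start (fold 3.84), which left the start itself between 2 peaks. The last, with a fold of 3.15, was the weakest of all 36 and had its summit 2 bp from the start of JUN-DT, a long noncoding gene that begins 1104 bp from the JUN start on the other strand.

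JUNB (chr19:12791486-12793315, + strand), a JUN relative, was the only member with peaks in all 4 MYT1L libraries, but at different places. Peaks of all 4 anywhere in the window occurred at 32.8% of all protein-coding genes and 20.7% of those of similar length. Its highest fold was 3.64, 4.29, 4.90 and 4.08 in replicates 1 to 4, a mean of 4.23 ± 0.525 (SD, n = 4), with no IgG peak. At the start, replicates 3 and 4 overlapped in chr19:12791229-12791851, with summits 70 and 117 bp upstream, and both peaks covered the start and TATAAA. About 1 kb inside, replicates 1 and 4 overlapped with summits 977 and 944 bp after the start. That place is also the start of HOOK2 on the opposite strand, 80 bp from the nearer summit, and the lists cannot assign the peak to either gene. Beyond the 3′ end, replicates 2 and 4 overlapped with summits 543 and 400 bp past it. No place was shared by 3 libraries.

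JUND (chr19:18279694-18281622, − strand), a JUN relative that cells express constitutively, had the reproducible region chr19:18281124-18282179. Its fold was 5.01 in replicate 1, 5.95 in replicate 3 and 6.25 in replicate 4 (5.74 ± 0.647, SD, n = 3), with none in replicate 2. Summits lay 405, 320 and 219 bp upstream of the start. The peaks of replicates 3 and 4 crossed the start and held TGACGTCA, 200 to 193 bases before it, while the replicate 1 peak ended 202 bp before the start, just short of it. The pileup of 43 fragments in replicate 4 was at the 92.9 percentile of that list. No place at JUND had a replicate 2 peak. Replicate 1 also had a peak past the 3′ end, with a fold of 5.13.

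EGR1 (chr5:138465479-138469303, + strand), a factor induced by the same stimuli as FOS, had peaks of 3 libraries in the region chr5:138464634-138465390. Its fold was 6.66 in replicate 1, 7.18 in replicate 2 and 6.66 in replicate 4, a mean of 6.83 ± 0.300 (SD, n = 3), while replicate 3 and both IgG libraries had no peak. The 3 summits fell within 64 bp of each other, at 304, 256 and 240 bp before the start. All 3 peaks ended upstream of the start, at 103, 102 and 89 bp before it. The CGTCA that lies 135 to 131 bases before the start was inside all 3 peaks, and the CGTCA at 66 to 62 bases inside none. The CArG box at 105 to 96 bases was inside 1 of the peaks (replicate 4), and the CArG box at 83 to 74 bases inside none. The replicate 4 pileup, 52 fragments over a local background of 6.95, was the highest of the 36. Replicate 4 had weaker peaks on either side, at 1250 bp upstream (fold 3.35) and 486 bp downstream (fold 3.79), so its start too was in a gap between peaks. With its pileup taken as exact, the replicate 1 peak had a chance of being called at the depth of replicate 3 that rounds to 100%. Replicate 3 had none. Over the whole replicate 1 list 93.7% of peaks were expected in replicate 3 and 40.1% found.

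EGR2 (chr10:62811996-62819167, − strand), known also for its role in myelinating cells, had 4 peaks in 4 separate places and no region shared between libraries. Replicate 3 had folds of 3.52 and 4.72 at 1198 and 513 bp after the most downstream of its 3 listed starts. Replicate 4 had a fold of 4.96 with a summit 204 bp before that start and a fold of 4.29 near 550 bp after the middle start. EGR3 (chr8:22687659-22693480), an EGR relative also regulated by activity, had a single peak in replicate 4 with a fold of 5.33 and a pileup of 30 fragments. It lay 1732 bp beyond the higher-coordinate end of the gene, inside the noncoding gene LOC105379321 at chr8:22694857-22696332.

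NPAS4 (chr11:66409158-66426707, + strand) had 2 reproducible regions, each with peaks in replicates 1, 2 and 4. The first, chr11:66408582-66409073, had folds of 5.68, 5.77 and 9.02 (6.82 ± 1.90, SD, n = 3), and the last was the highest fold of the 36 peaks. Its summits lay within 49 bp of each other, at -386, -337 and -363 bp from the lower end of the annotated gene. The promoter table lists no start there and gives 2 starts, at 66421004 and 66421035, from the first of which the summits lay 12183 to 12232 bp away. The second region, chr11:66421071-66421612, lay just after these starts, with folds of 4.16, 5.61 and 4.64 (4.80 ± 0.739, SD, n = 3). Its summits stood 301, 431 and 230 bp after the nearer start, and none of its 3 peaks reached back to a start. In replicate 2 the fold at the outer place (5.77) was close to that at the inner one (5.61), whereas in replicate 4 it was higher (9.02 against 4.64).

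ARC (chr8:142611049-142614479), a dendritic and synaptic protein, had the lowest mean highest fold of the set, which rests on 1 library. Its only peak, in replicate 4 at chr8:142614557-142614868, had a fold of 4.01 and a pileup of 19 fragments, with the summit 292 bp beyond the higher-coordinate end of the gene. The fold was at the 10.8 percentile of that list, and the pileup at the 57.4 percentile. At the depth of replicate 2 such a peak had a 39.8% chance of being called, so its absence there is not informative. Replicates 1 and 3 had higher estimated backgrounds than replicate 4 (1.18 and 1.05 against 0.895 fragments) and also no peak at ARC. The part of depth was not tested.

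**Figure D2:**
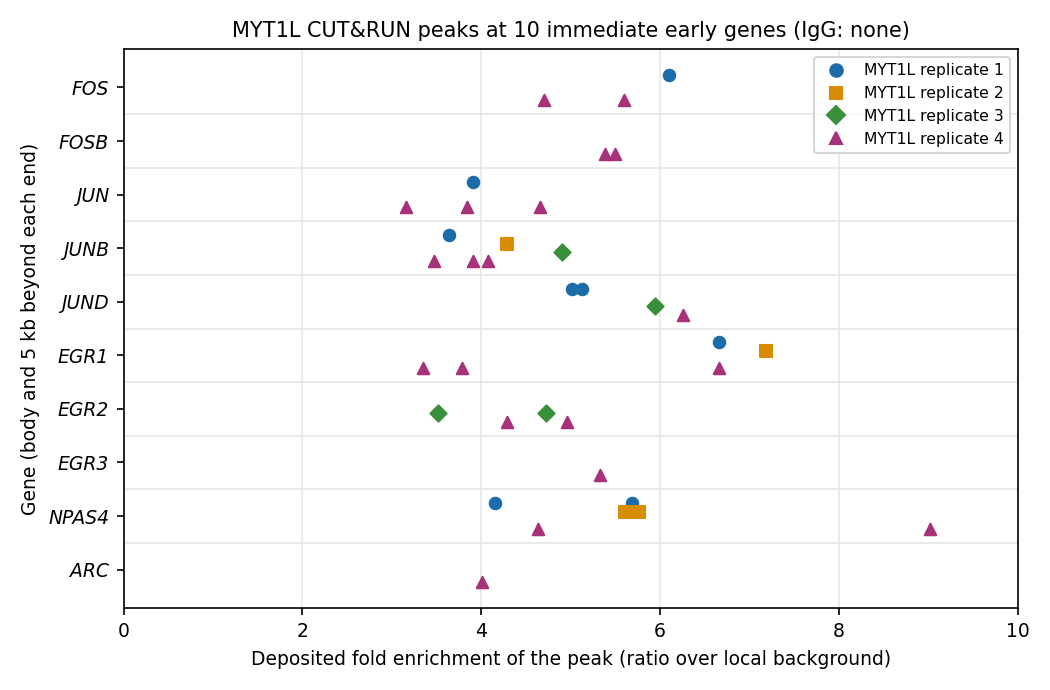
Each point is a deposited peak in the body or within 5 kb of the gene on the vertical axis, and the horizontal axis is its fold over local background (a ratio). Points of MYT1L replicates 1 to 4 are on separate lines within a gene. EGR1, JUND and NPAS4 have points of 3 libraries, JUNB of 4, and FOSB, EGR3 and ARC of replicate 4 alone.

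Ordered by the mean highest fold over libraries with a peak, EGR1 (6.83) and NPAS4 (6.82) led, followed by FOS (5.85), JUND (5.78), FOSB (5.50) and EGR3 (5.33). EGR2 (4.84), JUN (4.28), JUNB (4.23) and ARC (4.01) were lowest. EGR1 and NPAS4 differed by less than the SD of either, as did FOS and JUND, and JUN and JUNB. EGR2 and JUN differed by more than the SDs of both (0.168 and 0.529, n = 2 each), and the libraries behind the means are not the same. FOSB, EGR3 and ARC rest on 1 library and have no spread. By list rank, the 36 peaks ran by fold from the 1.23 to the 86.0 percentile with a median of 35.2. By −log10 q the median rank was higher, at the 56.8 percentile.

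Peaks of the set ranked higher by pileup than by fold, and the local background ranked higher still, a comparison chosen after the values were seen. All 36 peaks had a local background above their list's median, with a median rank at the 87.2 percentile, while the pileup ranked at the 72.8 percentile. Peaks of 1 gene in 1 library can share nearly the same background (6.30, 6.29 and 6.29 at JUN in replicate 4). The 36 values are thus not independent. In replicate 4 the local background at the 20 peaks was 3.10 to 7.77 times the genome-wide one, against a median of 2.16 times over that list. The median background ranks by library were 83.9, 85.2, 76.0 and 95.6, whereas all peaks with a summit within 1 kb of a listed start had medians of 52.8, 48.9, 51.5 and 64.3. The 2 groups are not matched, since 12 of the 34 peaks of members with a listed start lay farther than 1 kb from it. The fold divides by this background, so a peak of 36 fragments at FOS in replicate 4, at the 87.0 percentile by pileup, was at the 50.7 percentile by fold. How the caller set the background and whether a control entered it are not given in the sources used here.

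**Figure D3:**
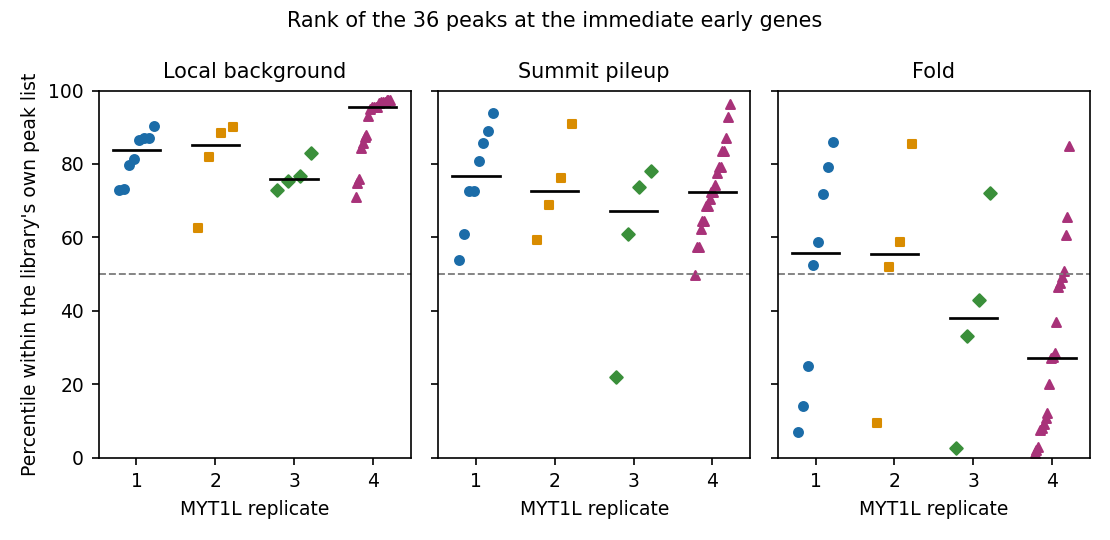
Each point is 1 of the 36 peaks, placed by the percentile of its local background, summit pileup or fold within its own library's list (vertical axis). Black bars are medians per MYT1L replicate and the dashed line is the list median. Every point lies above the line for background, whereas most points of replicates 3 and 4 lie below it for fold.

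Position was examined for the 34 peaks of the 8 members with a listed start. Of these, 22 had a summit within 1 kb of a start, 13 of them upstream and 9 downstream, and 12 lay farther. Over the whole lists, 31.8% to 41.2% of summits lay within 1 kb of a listed start, but those lists include peaks far from any gene, so the shares are not comparable with peaks taken from windows around short genes. The number of members with such a summit was 5, 2, 3 and 8 of 8 in replicates 1 to 4, against 53.3%, 32.3%, 45.9% and 68.2% of 15842 protein-coding genes with a listed start. The IgG libraries had 0 of 8, against 0.732% and 2.09%.

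At most of these genes the start itself was outside the peaks, a measure chosen after the positions were seen. A summit lay within 1 kb of a start in 18 pairs of a member and a library, and in 4 of these a start was inside a peak: JUNB and JUND, each in replicates 3 and 4. By library this was 0 of 5, 0 of 2, 2 of 3 and 2 of 8 members. Among all genes with a summit that close, the start was inside a peak in 71.0%, 57.5%, 72.4% and 85.8% (41.4% and 38.4% in the IgG libraries, with no member). Without replicate 4 it was 2 of 10 pairs, and with genes that have 1 listed start it was 4 of 13. FOS, FOSB and EGR1 were covered up to 30 to 103 bp before the start, and NPAS4 from 36 bp after its second start onwards. Pairs of the same gene or library are not independent, and no test was made. The local background of the replicate 4 peak nearest each start was compared with the genome-wide one. It was 6.75 times at JUND and 6.03 times at JUNB, whose starts were covered. At uncovered starts it was 7.77 (EGR1), 7.03 (JUN), 6.27 (FOS), 4.19 (NPAS4), 4.07 (FOSB) and 3.39 times (EGR2). Its part in the coverage of starts was not tested.

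**Figure D4:**
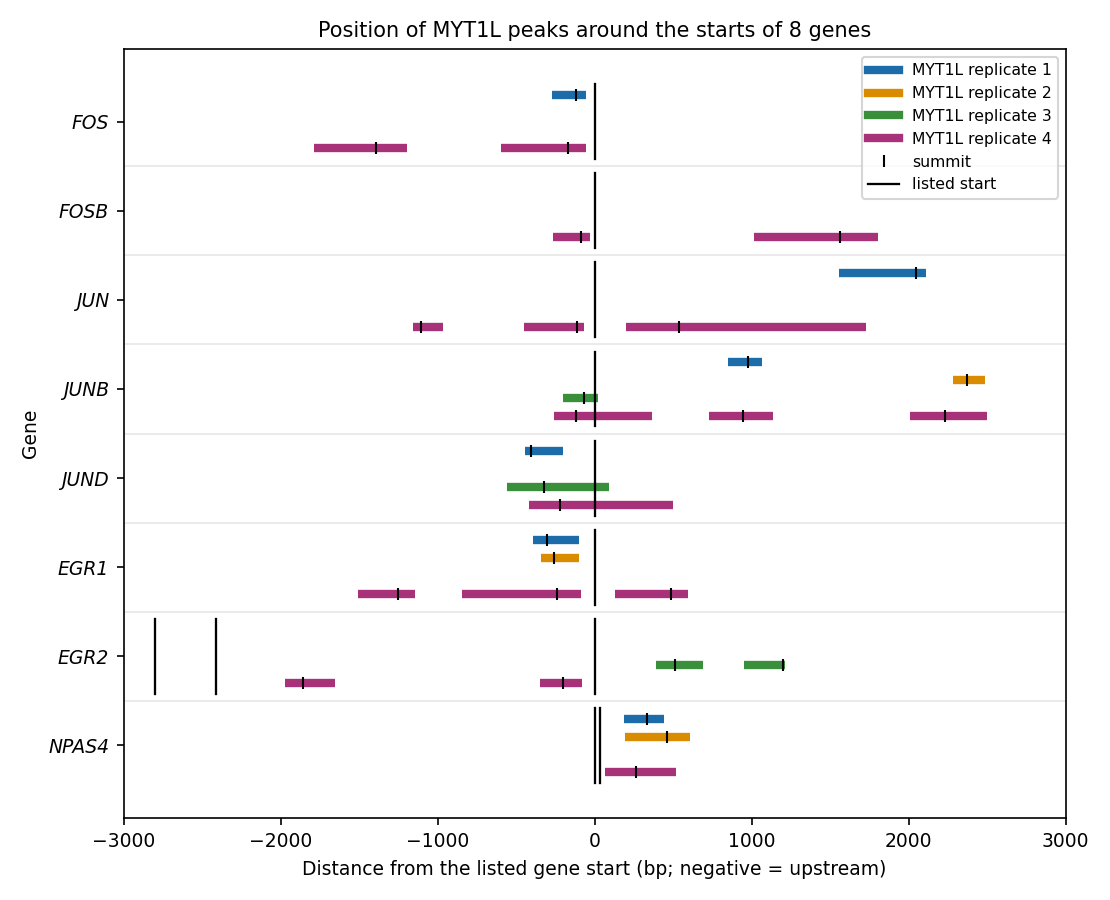
Horizontal bars are MYT1L peaks of replicates 1 to 4 around the listed starts (vertical lines) of 8 genes, in bp, with upstream to the left, summits as ticks, and 0 at the most downstream listed start of EGR2 and the first of NPAS4. The outer NPAS4 region and the peak past the 3′ end of JUND lie outside the 3 kb shown on either side. At FOS, FOSB, JUN, EGR1, EGR2 and NPAS4 no bar crosses a start, and at JUNB and JUND bars of replicates 3 and 4 do.

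The upstream windows of the members were rich in G and C, with a median of 68.4% over 11 windows against 62.0% over all 22182. CpG pairs numbered 25.0 against 16.0 in the median. JUND had the most CpG pairs, 40, with 74.8% GC, and its window was covered in 3 libraries. EGR1, with 25 pairs, was covered in 3 libraries as well, and FOS (25 pairs) and JUNB (27 pairs) in 2. JUN (14 pairs), FOSB (19 pairs) and the EGR2 window with 27 pairs were covered in 1. The EGR2 window with 35 pairs and the highest GC share of the 11, 78.0%, and both NPAS4 windows, with 19 and 20 pairs, were covered in none. The remaining EGR2 window, with the fewest pairs, 8, and the lowest GC share, 54.8%, was also covered in none. Across all windows the median GC share was 51.6% where no MYT1L library had a peak and 69.2% where all 4 had one. Its part in the coverage of the members was not tested.

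The libraries shared the peaks of this set unevenly. Replicate 4 overlapped 7 of the 8 peaks of replicate 1 (87.5%) and 4 of 4 of replicate 2, against 57.0% and 71.6% of those whole lists. These were 35.0% and 20.0% of the 20 peaks of replicate 4. Replicate 3 overlapped 1 of the 8 peaks of replicate 1 (12.5%, against 40.1% of the whole list) and 0 of 4 of replicate 2 (against 54.4%). Thinning takes each observed pileup as exact, so expected numbers can be too high, above all between libraries of similar background. Numbers expected from thinning to the other library's background were close to those found in some pairs and not in others. Over the whole lists fewer peaks were found than expected in each of these pairs. Of the 8 replicate 1 peaks, 3.64 were expected and 3 found in replicate 2, 7.34 were expected and 7 found in replicate 4, and 7.85 were expected and 1 found in replicate 3. Over that whole list 38.1% were expected and 28.8% found in replicate 2. In replicate 4 these shares were 88.3% and 57.0%, and in replicate 3 they were 93.7% and 40.1%. Of the 4 replicate 3 peaks, 1.39 were expected and 0 found in replicate 2, and 3.53 were expected and 2 found in replicate 4. Over that whole list 45.7% were expected and 35.0% found in replicate 2, and 95.4% and 66.5% in replicate 4. Of the 20 replicate 4 peaks, 14.2 were expected and 4 found in replicate 2, and over that whole list 64.0% were expected and 28.8% found. The cause of these differences was not tested.

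Other genes of the same response were counted from lists. A reproducible region without IgG peak lay at 6 of 14 AP-1 partners (42.9%), at 28 of 44 other immediate early and activity-induced genes (63.6%) and at 24 of 37 regulators of immediate early transcription (64.9%), against 48.0% of all protein-coding genes, with no matching for length. A region in all 4 libraries was present at 4, 11 and 9 genes of these lists, 25.3% of the 95 together and equal to the 25.3% of all genes. Among AP-1 partners with such a region, ATF7 had a fold of 10.9 ± 2.95, ATF2 of 7.93 ± 1.03, ATF3 of 6.35 ± 1.35 and FOSL1 of 5.27 ± 0.888 (SD, n = 4 each). The strongest activity-induced genes were CREM at 7.96 ± 4.31, a CREB relative, and RGS2 at 7.65 ± 1.21, a regulator of G-protein signalling. BTG1 (7.46 ± 1.15), HOMER1 (6.98 ± 2.21), a postsynaptic scaffold gene, and GADD45A (6.91 ± 0.902) followed. Of the regulators, the kinase genes CAMK4 (8.71 ± 2.22) and RPS6KA5 (8.67 ± 0.857) were highest. CREB1 (7.80 ± 1.32), whose product binds cAMP response elements, and NAB1 (7.69 ± 1.20), a corepressor of EGR proteins, were also among the highest (SD, n = 4 each). The members had 0 of 10 such regions.

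EGR1 had the highest mean of the strongest fold over the 4 MYT1L libraries when a library without peak was set to 1, at 5.38, and NPAS4 was next at 5.37. The protein-coding genes most like EGR1 in these 4 values, out of 20032, were CCDC40, B4GALT1 and BSDC1, at Euclidean distances of 0.110, 0.130 and 0.151 on the log2 scale. Each of them also had no peak in replicate 3, which follows from the choice by distance, since EGR1 was set to 1 there.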

How the data were processed

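Processed peak lists were used, 1 per library, with no header. The submitters' processing notes name MACS2 and hg38. The aligner, threshold, control and any pooling are not given in the sources used here. Each deposited peak has a fold enrichment (a ratio over local background), a −log10 p, a −log10 q and a score, all the authors' own values, and the deposited score is 10 times the −log10 q, truncated. Groups and replicate numbers follow the sample titles, although within the MYT1L files the names of single peaks hold a number 1 higher, so a replicate number may not be that of the bench.

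Peaks on chromosomes 1 to 22, X and Y were used, with coordinates counted from 1. MYT1L peaks sharing at least 1 bp formed regions, checked against bedtools 2.31.1. Summit pileup and local background were recovered as the whole-number pileup that gives the deposited fold and Poisson p within 0.0002 under MACS's formulas, for peaks with a −log10 p up to 200, and at least 99.97% of the peaks of each list were recovered. The lowest background of a list was taken as genome-wide. Thinning a pileup binomially by the ratio of backgrounds gave the chance of a call in a shallower library. Depth in total reads is unknown, and these values cover the random loss in thinning only. The observed pileup was taken as exact, so its own counting error, and its selection by the caller, were left out. The chances can therefore come out too high, above all where 2 libraries have similar backgrounds. The gene table gives no exons, so none were assigned. Tests were exact permutations over libraries (Python 3.11.15, scipy 1.17.1). The genes and lists were chosen with earlier results of these data known, so counts of genes stand beside the share of all genes, without a test. Peaks and covered length at the 10 genes were tested between antibodies, over libraries only. All 10 members are named whatever their values. Genes of the lists are named when all 4 MYT1L libraries share a region free of IgG peaks, up to the 5 highest folds per list (1 gene that met this rule is not reported here), and likeness to the member with the highest mean fold names 3 genes; neighbours whose start lies in a member's window are named too. Alternatives covered the window, the q threshold, equal peak numbers, the overlap rule, the number of libraries and each library left out.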

Additional observations from a re-analysis of the deposited data

Results flagged for a closer look

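The covered length at the 10 genes was 10367 bp in MYT1L replicate 4, far above the other 3 MYT1L libraries, which had 1147 to 2258 bp. The number of peaks (20 against 4, 4 and 8) and of genes with a peak (10 against 3, 3 and 6) did not stand apart by the same measure of gaps, which chance exceeds in about 1 of 20 groups. Replicate 4 had the most peaks of all lists, 30086, and the median peak width there was 412 bp, against 296 to 349 bp in the other MYT1L lists. Its estimated depth was below that of replicates 1 and 3.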

How the results depend on the processing

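MYT1L libraries had more peaks and more covered length at the 10 genes than IgG libraries in all 12 alternatives of each, with differences of 5.25 to 11.5 peaks and 1616 to 5831 bp; with 0 peaks in both IgG lists no other direction was possible. Leaving out 1 library gave 5.33 to 10.7 peaks and 1616 to 4689 bp, the lowest without replicate 4. The permutation test cannot go below p = 0.133 here (0.5 with 2 pairs) and says nothing about stability. Replicate numbers 1 and 2 occur in both groups, but nothing says that they pair the libraries; with the replicate block the mean difference was 6 peaks and 1703 bp (exact sign-flip test, two-sided, p = 0.5, the smallest for 2 pairs). The number of members with a reproducible region, 3, was 6 when 2 libraries sufficed and 0 with all 4, which follows from the number of libraries asked for. With 1 library left out it was 3 to 6, with 6 without replicate 2 and 6 without replicate 3, where 2 of 3 libraries sufficed. The share of all protein-coding genes was not computed with a library left out. For the other activity genes the count of 58 was 38 for peaks whose −log10 q reached 5, and 24 with all 4 libraries, since fewer regions pass, and it was 53 to 73 with 1 library left out. The mean summit distance of the members turned sign when the strongest summit replaced the nearest one at FOSB (from -84 to 1563 bp), JUND (from -315 to 1998 bp) and NPAS4 (from 321 to -12208 bp), each of which has peaks on both sides of a start. Of 39 alternatives for single members, 29 moved by less than the SD between libraries (for starts inside peaks, within the exact binomial interval) and 7 by more or without an SD to compare, all 7 being list percentiles by −log10 q in place of fold. The alternatives on starts inside peaks were chosen after seeing the data. Depth limits what can be seen in replicate 2: peaks such as that of ARC had a 39.8% chance of a call at its background. The deeper replicates 1 and 3 had no peak at ARC either.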
